A study of Mus musculus with 401 samples.

Results

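The proteasome subunit genes described here were the protein-coding genes of both count tables whose symbols start with Psma, Psmb, Psmc, Psmd, Psme, Psmf or Psmg and a digit, pseudogene copies aside. The rule found 50 genes of the 39808 that the tables share. By role they were 7 alpha ring subunits, 7 constitutive beta ring subunits, 3 immunoproteasome beta subunits, 1 testis alpha subunit (Psma8), 1 thymus beta subunit (Psmb11), 6 ATPases and 3 other subunits of the base, 8 lid subunits, 3 base assembly chaperones, 4 activators, 1 inhibitor (Psmf1) and 4 core assembly chaperones. Psmc3ip, which encodes a partner of the meiotic recombinases, and Psme2b, a copy of an activator gene, met the rule by their symbols and were kept apart as 2 genes that share the name.

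The proteasome degrades proteins tagged with ubiquitin. Its core particle is a stack of alpha and beta rings whose beta subunits cut peptide bonds, and its regulatory particle has a base of ATPases that unfold substrates and a lid that removes ubiquitin. In the immunoproteasome, which interferon induces and which makes peptides for MHC class I, Psmb8, Psmb9 and Psmb10 take the places of Psmb5, Psmb6 and Psmb7. An oocyte at the germinal vesicle (GV) stage has ceased growing, holds a store of maternal RNA and needs the proteasome for the timed loss of proteins in meiosis.

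RNA was sequenced by RamDA-seq, a full-length total RNA method for single cells, from single GV oocytes of fully grown follicles and, as a separate library, from a pool of each oocyte's own cumulus cells. All mice were B6D2F1 (C57BL/6 × DBA/2) females. In the first set, fed ad libitum (AL) unless restricted, the groups were young (2 months, 16 oocyte and 15 cumulus libraries of 2 mice), middle (9 months, 14 and 15 of 4 mice), old (14 months, 16 and 16) and CR (9 months with calorie restriction, 27 and 25 of 3 mice). The second set, on AL diet throughout, held mice of 2 months (24 and 24), 4 months (39 and 40), 9 months (16 and 16), 14 months (16 and 16) and 2 months without hyperovulation (32 and 32 of 8 mice). Every other group had received eCG or HyperOva to stimulate the follicles, and oocytes were held at the GV stage with IBMX. CR began in adult mice in steps, and these mice were housed singly, so diet and housing cannot be told apart. Median count totals were higher in CR than in middle libraries of both cell types. The labels do not say whether CR and AL libraries were prepared and sequenced together. Diet and a difference in processing therefore cannot be told apart either. In the old group, 1 of the 2 mouse labels joins 2 mice.

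The count totals ran from 559305 to 4536690 in the oocyte libraries and from 510029 to 2501005 in the cumulus libraries. Summed oocyte markers lay between 7928 and 30098 CPM (counts per library scaled to a common total) in the oocyte libraries and between 0 and 408 CPM in the cumulus libraries, and summed cumulus markers between 2875 and 18443 CPM in cumulus and between 192 and 2713 CPM in oocytes. The labelled cell types thus held their defining markers. Some cumulus signal stood in oocyte libraries: the summed list was 6.68% of its cumulus level in young oocytes and 4.37% in 2-month oocytes. Single markers of that list ranged from 0.82% (Gatm) to 30.4% (Serpine2) in the young group and from 0.15% (Fst) to 31.1% (Serpine2) at 2 months, with Inha at 4.14% and 0.36%. Group medians of the summed theca and stroma markers were at most 0.933 CPM in oocytes and 16.2 CPM in cumulus. The blood list had group medians of 28.03 to 36.5 CPM in oocytes and 5.14 to 10.7 CPM in cumulus, and the endothelium list of 71.8 to 90.9 CPM and 3.96 to 9.13 CPM. In young oocytes Pecam1 made 79.3 CPM of the endothelium list and Kdr 5.73 CPM, while Cdh5 stood at 0.191 CPM and Cldn5 at 0.0667 CPM. Of the blood list H2-Aa stood at 16.4 CPM, Csf1r at 11.4 CPM and C1qb at 9.15 CPM. In young cumulus these blood genes were at 0.219, 3.23 and 0 CPM. The blood genes Ptprc, Cd52, Cd74, Lyz2, C1qa and Cd3e were at 0 in young oocytes. The 2 libraries of 1 complex whose oocyte library held almost no oocyte marker RNA were left out. In every test below the libraries were the units, as in the study. Since several complexes came from the same mouse, the p-values are too small for a comparison of mice.

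Promoter windows were looked up for the genes on which the cell-type contrast turns. RefSeq windows (GRCm38.p6, 250 bases before to 50 after a gene's start) were found for 42 of the 50 genes, in 45 windows, and not for Psma8, Psmb1, Psmb2, Psmb7, Psmc3, Psmd3, Psmd7 and Psmg2. The 250 bases before the start are printed for the immunoproteasome genes Psmb8 and Psmb9 and for the activator gene Psme1, which were low in oocytes, and for Psmb5 and Psmb6, whose products Psmb8 and Psmb9 replace. Capitals mark matches on either strand to TGACNNNGC, the antioxidant response element bound by the family of Nfe2l1 and Nfe2l2, or to an interferon response element spelled as GAAA, any 2 bases and GAAA again.
Psmb8, chr17:34197945-34198194 (+): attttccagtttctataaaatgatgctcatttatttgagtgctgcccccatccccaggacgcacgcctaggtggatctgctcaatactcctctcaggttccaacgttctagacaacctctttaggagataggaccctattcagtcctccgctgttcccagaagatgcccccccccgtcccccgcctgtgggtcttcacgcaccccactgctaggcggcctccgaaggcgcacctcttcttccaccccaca
Psmb9, chr17:34187331-34187580 (-): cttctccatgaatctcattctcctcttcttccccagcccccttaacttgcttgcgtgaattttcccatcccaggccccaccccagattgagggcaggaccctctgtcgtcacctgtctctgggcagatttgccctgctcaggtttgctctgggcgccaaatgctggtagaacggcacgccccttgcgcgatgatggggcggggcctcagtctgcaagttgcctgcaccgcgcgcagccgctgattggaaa
Psme1, chr14:55578244-55578493 (+): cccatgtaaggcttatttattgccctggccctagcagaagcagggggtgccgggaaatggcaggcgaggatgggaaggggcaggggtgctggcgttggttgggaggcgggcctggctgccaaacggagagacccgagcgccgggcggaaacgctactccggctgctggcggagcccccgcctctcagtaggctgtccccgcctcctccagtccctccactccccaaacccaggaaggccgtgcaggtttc
Psme1 element, chr14:55578493-55578522 (+): cgagctgtgcTTTCGCTTTCccttcccgct
Psmb5, chr14:54617996-54618245 (-): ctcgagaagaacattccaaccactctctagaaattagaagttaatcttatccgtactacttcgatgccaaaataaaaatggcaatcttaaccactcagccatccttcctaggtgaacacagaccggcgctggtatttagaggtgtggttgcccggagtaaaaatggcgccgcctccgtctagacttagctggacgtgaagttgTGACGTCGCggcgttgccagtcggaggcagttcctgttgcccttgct
Psmb6, chr11:70525107-70525356 (+): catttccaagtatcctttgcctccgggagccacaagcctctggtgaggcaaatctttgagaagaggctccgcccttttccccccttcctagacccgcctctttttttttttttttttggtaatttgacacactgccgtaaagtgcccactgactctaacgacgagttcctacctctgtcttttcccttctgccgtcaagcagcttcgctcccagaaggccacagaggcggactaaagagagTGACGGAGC

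The antioxidant element began 47 bases before the start in Psmb5 and 9 bases before it in Psmb6. It was found in 6 of the 42 genes with a window (14.3%), the others being Psmc6, Psmd9, Psmd12 and Psme4, and in 12.4% of all 32851 windows of that length. The interferon element was found in 5 genes (11.9%), Psmb3, Psmd4, Psmd9, Psme1 and Psmg4, against 3.44% of all windows, and in Psme1 it began 10 bases after the start. Neither motif was matched in the windows of Psmb8, Psmb9 or Psmb10. The annotated genes of Psmb8 and Psmb9 begin before their windows, at chr17:34197721 and chr17:34187764. The bases before those starts were not searched. CCAAT, the motif of NF-Y, was found in 15 genes (35.7%) against 37.4% of windows. These matches describe letters in a window and were not tested as sites.

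The oocyte and its cumulus cells held the proteasome genes in different proportions. At 2 months in the second set, the genes of the immunoproteasome, of the activator subunit Psme1 and of the chaperone Psmg2 were near 0 in oocytes and the lid gene Psmd13 was low, while those of the inhibitor Psmf1, the base chaperone Psmd9 and the activator Psme3 stood several-fold above cumulus cells. Of the 50 genes, 29 were higher and 20 lower in oocytes in edgeR's quasi-likelihood test (Benjamini-Hochberg adjusted p under 0.05), and 88.4% of all genes tested were called in that comparison, 42.3% higher and 46.1% lower. The same comparison of young libraries in the first set called 19 higher and 20 lower, where 85.6% of all genes were called, 40.7% higher and 44.9% lower. The median log2 difference, oocyte over cumulus, was 0.47 over the 50 genes and -0.16 over all genes at 2 months, and -0.05 against -0.21 in the young group. In a cumulus pool, fewer cells of a type and less RNA per cell cannot be told apart. Without TMM scaling, the young count became 16 higher and 27 lower, with a median of all genes of -0.54. The count at 2 months became 22 higher and 21 lower, with medians of 0.13 over the 50 genes and -0.48 over all genes.

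The direction was the same in both sets for 36 genes, 18 higher and 18 lower in oocytes. Psma5 and Psmd3 passed the test in both sets in opposite directions: Psma5, an alpha ring subunit, was at 0.30 at 2 months and at -0.51 in the young group, and Psmd3, a lid subunit, at -0.17 and 0.23. Another 11 genes passed in the second set only and Psma4 in the first only. Oocyte and cumulus ranges did not overlap for 8 genes that were higher in oocytes in both sets (Psma7, Psmb2, Psmd4, Psmd5, Psmd8, Psmd9, Psme3 and Psmf1) and for 4 that were lower (Psmd13, Psme1, Psme2 and Psmg2). Within each set the oocyte and cumulus ranges did not overlap for 19 of the 50 genes, against 31% of all genes in the young group and 32.3% at 2 months.

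**Figure D1:**
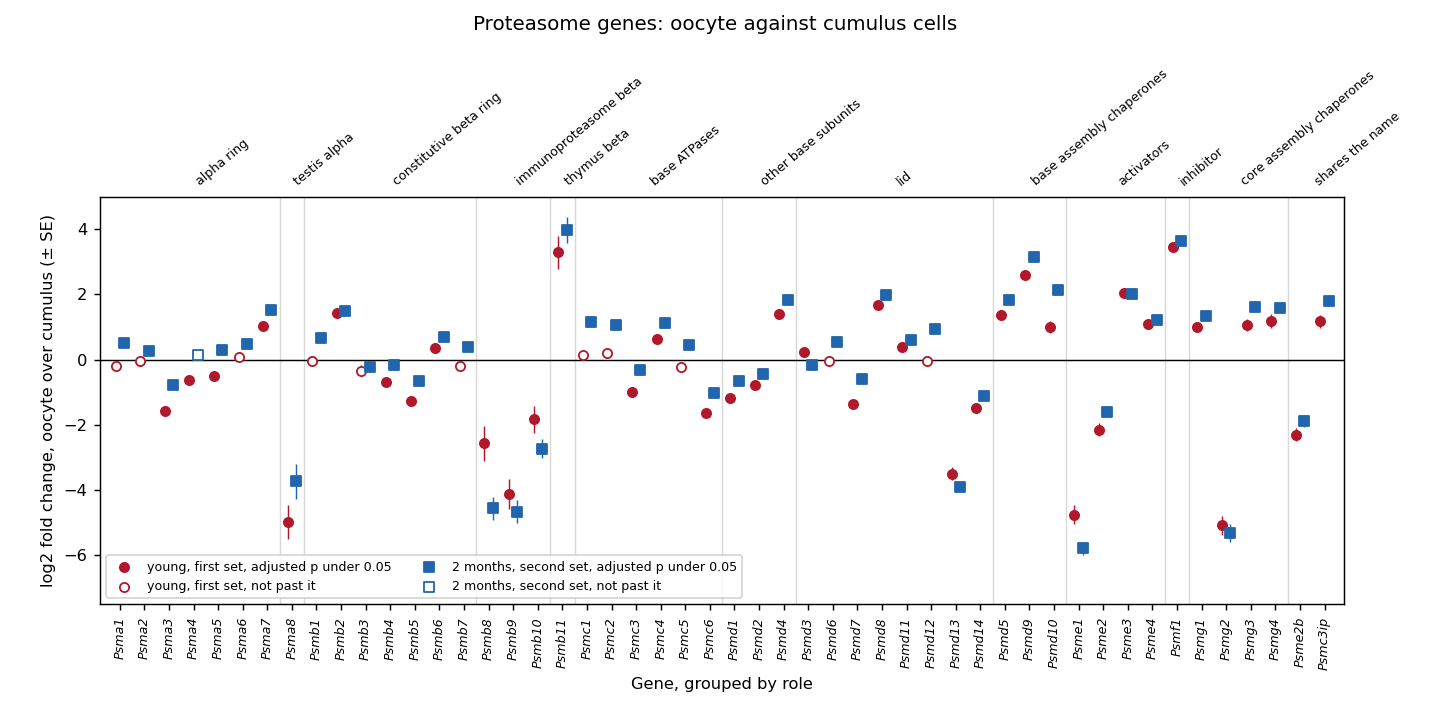
Log2 difference of each proteasome gene, oocyte over cumulus, on the y axis with genes by role along the x axis, for the young libraries of the first set (red circles) and the 2-month libraries of the second (blue squares). Bars are standard errors and filled points have an adjusted p under 0.05. Psmf1 and Psmd9 lie far above 0 in both sets, at log2 differences of 2.59 to 3.63, and Psme1, Psmg2, Psmb9 and Psmd13 far below it, at -5.79 to -3.49.

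Psmb8, the immunoproteasome subunit with chymotrypsin-like activity, had a median of 0 CPM in 2-month oocytes (lowest 0, highest 0.52) and of 3.17 CPM in cumulus (0 to 9.28). A deposited count above 0, fractions of a read included, was present in 4 of 24 oocyte libraries and in 23 of 24 cumulus libraries. The log2 difference was -4.56 (SE 0.36, adjusted p = 8.78e-18), and -2.57 (SE 0.523, adjusted p = 3.01e-05) in the young group, so that the ranges met only at low values. The fitted fold of a gene this close to 0 depends on the prior count, and the share of libraries with a count is the firmer description. In the second set 42.11% of its nonzero counts were not whole numbers, as arises where a read is split among places or genes.

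Psmb9, the partner subunit in the same class II region of the MHC, had a count in 6 of 24 oocyte libraries and in all 24 cumulus libraries. Its levels were 0 CPM at the median (0 to 1.09) in oocytes and 4.95 CPM (1.045 to 11.8) in cumulus, and the highest oocyte library overlapped with the lowest cumulus library. Its log2 difference was -4.66 (SE 0.349, adjusted p = 9.38e-19) at 2 months and -4.13 (SE 0.457, adjusted p = 1.7e-10) in the young group. Psmb10, the subunit that replaces Psmb7, had 0.48 CPM (0 to 1.06) in oocytes and 2.36 CPM (0 to 5.40) in cumulus, and its difference was -2.73 (SE 0.3, adjusted p = 2.37e-12). Over the 9 oocyte groups of both sets, group medians stayed between 0 and 0.245 CPM for Psmb9 and between 0 and 0.578 CPM for Psmb10, and were 0 in every group for Psmb8. These CPM use counts rounded to whole numbers, so small fractions of a read became 0. In the authors' RPKM, a level per transcript length, the middle oocyte medians of all 3 genes were above 0, the lowest at 0.0451. The cumulus medians of these 3 genes lay between 1.44 and 7.95 CPM in the 9 cumulus groups, so the immunoproteasome genes were low there too.

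The constitutive subunits that these replace were plentiful in both cell types. Psmb5, the chymotrypsin-like subunit, stood at 23.5 CPM (16.1 to 36.7) in 2-month oocytes and 35.7 CPM (23.8 to 60.8) in cumulus, with overlapping ranges and a log2 difference of -0.67 (SE 0.093, adjusted p = 2.69e-09). Psmb6, the caspase-like subunit, went the other way, with 112 CPM (93.4 to 134) in oocytes and 73.7 CPM (52.4 to 86.9) in cumulus and no overlap. The difference was 0.68 (SE 0.056, adjusted p = 4.56e-17). In the young group Psmb6 was also called higher in oocytes, but its ranges overlapped. There it passed in 6 of 9 alternative fits, with differences of 0.04 to 0.76. Psmb7, the trypsin-like subunit, was at 0.38 (SE 0.0879, adjusted p = 8.88e-05) at 2 months, and at -0.18 (SE 0.115, adjusted p = 0.133) in the young group, where it did not pass. Per transcript length, in the authors' RPKM, the constitutive beta genes at 2 months had a median of 44.0 in cumulus with a range of 19.8 to 53.0, against 1.28 to 1.57 for the immunoproteasome genes.

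The thymus beta subunit gene Psmb11, known from cortical thymic epithelium, was detected at a low level in oocytes. Its level was 2.22 CPM (0.53 to 6.35) in 2-month oocytes with a count in all 24 libraries, and a count was present in 2 of 24 cumulus libraries. In the young group all 16 oocyte libraries and 3 of 15 cumulus libraries held a count. The log2 difference was 3.96 (SE 0.397, adjusted p = 8.83e-14) and 3.29 (SE 0.503, adjusted p = 2.22e-07) in the 2 sets. The medians of the 9 oocyte groups lay between 2.09 and 3.31 CPM, with 0 in every cumulus group. Psma8, the alpha subunit of the spermatocyte proteasome, had a count in 2 of 24 oocyte and 12 of 24 cumulus libraries at 2 months, and its difference was -3.73 (SE 0.535, adjusted p = 6.47e-09).

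**Figure D2:**
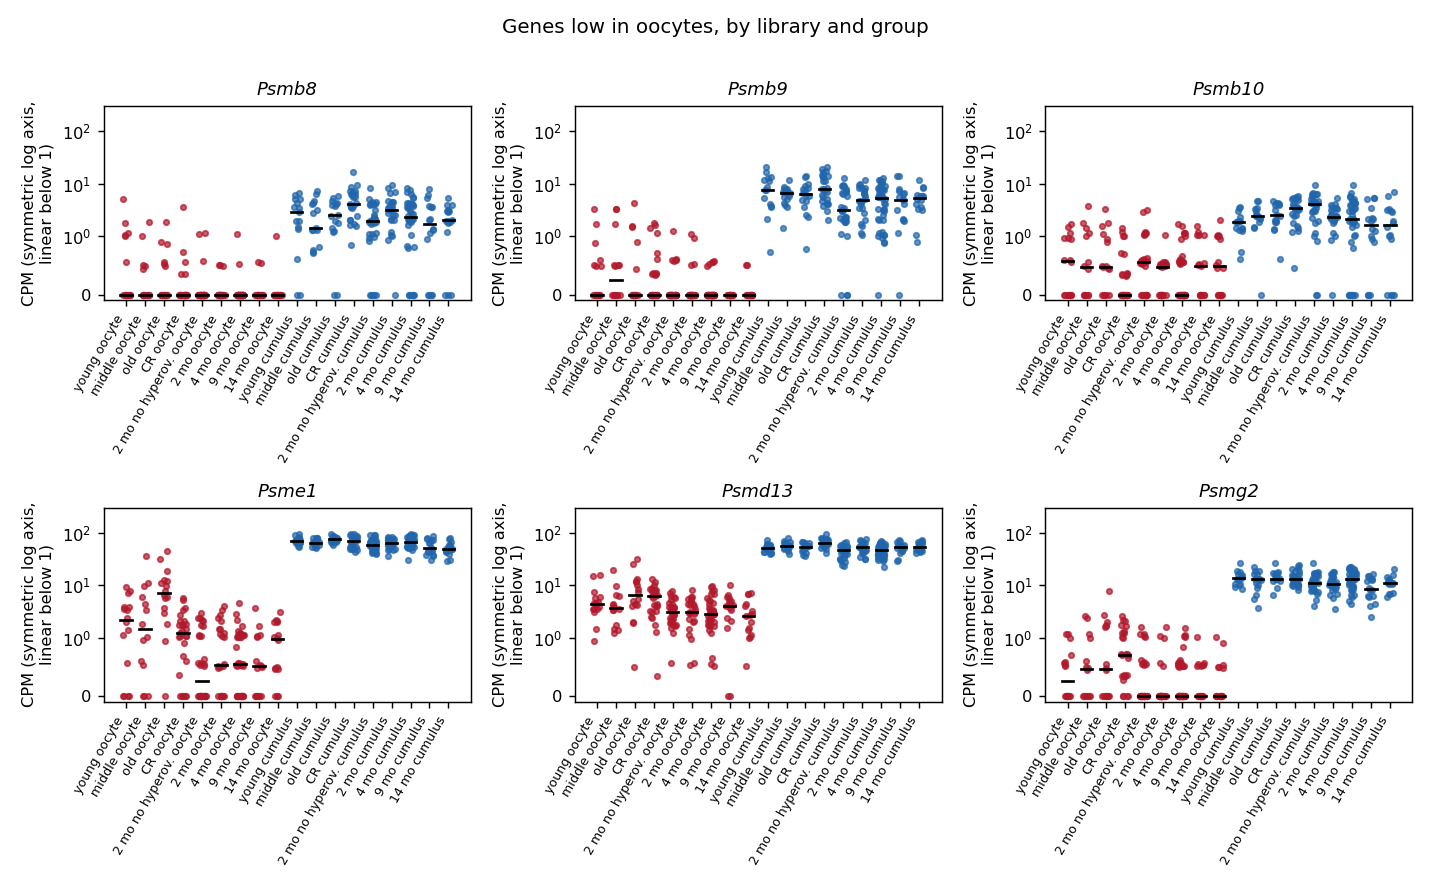
CPM in every library for Psmb8, Psmb9, Psmb10, Psme1, Psmd13 and Psmg2, with 1 panel a gene, the 18 groups along the x axis (oocyte red, cumulus blue) and lines at the medians. The y axis is logarithmic above 1 and linear below it. Psme1 medians lay at 0.259 to 7.05 CPM in the oocyte groups and at 49.2 to 76.9 CPM in the cumulus groups.

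Among the activators, which open the core particle without ATP, the family split by subunit. Psme1, the alpha subunit of the interferon-induced activator ring, had a median of 0.53 CPM (0 to 3.97) in 2-month oocytes and 62.3 CPM (36.4 to 82.9) in cumulus, without overlap, and its fitted oocyte level was 1.81% of the cumulus level. The log2 difference was -5.79 (SE 0.19, adjusted p = 3.98e-36), and -4.75 (SE 0.294, adjusted p = 1.23e-17) in the young group. Its partner Psme2, the beta subunit of that ring, was lower in oocytes by a smaller step, with 6.92 CPM (1.12 to 11.2) against 21.04 CPM (11.6 to 37.8) and a difference of -1.62 (SE 0.136, adjusted p = 1.12e-16). In the young group the oocyte level of Psme1 was 3.71% of the cumulus level, beside 6.68% for the summed cumulus markers. At 2 months that sum stood at 4.37%, and of its 328 CPM in oocytes Serpine2 made 233 and Nr5a2 65.5. Single markers there ranged from 0.15% (Fst) to 31.1% (Serpine2), with Inha at 0.36%, beside 1.81% for Psme1. The part of cumulus RNA in the oocyte level of Psme1 was not tested.

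Psme3, which forms the nuclear activator ring that acts without ubiquitin, was higher in oocytes. It had 325 CPM (271 to 416) in 2-month oocytes and 79.0 CPM (48.9 to 131) in cumulus, with no overlap, and the difference was 2.02 (SE 0.0739, adjusted p = 1.12e-33), with 2.04 in the young group. Psme4, the single-chain activator known for acetylated histones in germ cells, had 465 CPM (394 to 533) in oocytes and 208 CPM (96.9 to 259) in cumulus, with a difference of 1.23 (SE 0.0662, adjusted p = 3.15e-25). Psmf1 encodes an inhibitor that competes with activators for the core. It had 295 CPM (250.1 to 339) in oocytes and 23.4 CPM (15.1 to 37.4) in cumulus, the ranges stood well apart, and the fitted fold was 12.4 (log2 3.63, SE 0.0761, adjusted p = 3.85e-46) at 2 months and 10.99 in the young group. Psmf1 medians lay between 270.1 and 309 CPM over the 9 oocyte groups and between 20.4 and 28.6 CPM over the cumulus groups.

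In the lid, which holds the deubiquitinase Psmd14, 1 subunit gene was far lower in oocytes than in cumulus. Psmd13 had 3.10 CPM (0.53 to 7.94) in 2-month oocytes and 53.5 CPM (31.3 to 75.2) in cumulus, without overlap, and differed by -3.90 (SE 0.149, adjusted p = 1.01e-32), with -3.49 (SE 0.209, adjusted p = 4.63e-18) in the young group. A count was present in all 24 oocyte libraries, and the fitted level was 6.70% of cumulus. Of its annotated exon bases, 10.1% are shared with Sirt3. Its neighbours in the lid went both ways: Psmd8 had 193 CPM (172 to 236) in oocytes and 50.5 CPM (33.4 to 66.5) in cumulus, a difference of 1.98 (SE 0.0609, adjusted p = 1.79e-37), whereas Psmd14 differed by -1.10 (SE 0.0851, adjusted p = 3.19e-18).

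The chaperones that build the particle were higher in oocytes, with 1 exception. Psmd9, a chaperone of the base, had 183 CPM (166 to 221) in oocytes and 21.9 CPM (8.37 to 34.3) in cumulus, and differed by 3.14 (SE 0.0763, adjusted p = 8.16e-43); 25.5% of its exon bases are shared with Gm26745 on the opposite strand, and reads of the pair cannot be told apart. Psmd10, the ankyrin-repeat chaperone also called gankyrin, differed by 2.15 (SE 0.163, adjusted p = 1.55e-18), and Psmd5 by 1.82 (SE 0.0877, adjusted p = 1.33e-27). All 3 also passed in the young group, at 2.59, 1.01 and 1.38.

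Psmg1 to Psmg4 act in pairs on the alpha ring, Psmg1 with Psmg2 and Psmg3 with Psmg4. Psmg1 had 53.2 CPM (40.1 to 68.1) in 2-month oocytes and 21.4 CPM (5.40 to 36.5) in cumulus, without overlap, a difference of 1.35 (SE 0.109, adjusted p = 2.61e-17). Psmg2, its partner, had 0 CPM at the median (0 to 1.597) in oocytes and 10.5 CPM (3.47 to 17.9) in cumulus, also without overlap. The oocyte libraries with a count of Psmg2 were 5 of 24 at 2 months and 8 of 16 in the young group, against every cumulus library, and the difference was -5.31 (SE 0.279, adjusted p = 8.89e-26) and -5.09 (SE 0.299, adjusted p = 2.52e-18). The other pair was higher in oocytes on both sides, with 1.62 (SE 0.149, adjusted p = 3.22e-15) for Psmg3 and 1.59 (SE 0.142, adjusted p = 1.31e-15) for Psmg4.

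The rings and the base held genes of both directions. Among the alpha ring genes Psma7 was at 1.51 (SE 0.0792, adjusted p = 8.07e-26) and Psma3 at -0.78, and in the young group Psma3 was at -1.59. Psmb2, a beta ring subunit with no protease activity, was at 1.49 (SE 0.063, adjusted p = 1.76e-30), and the ubiquitin receptor of the base, Psmd4, at 1.82 (SE 0.0695, adjusted p = 1.04e-32), with 181 CPM (141 to 220.1) in oocytes and 50.3 CPM (30.96 to 70.3) in cumulus. The ATPase gene Psmc6 was lower in oocytes at -1.03. In RPKM, the highest 2-month oocyte medians were those of Psmb2 at 98.6 and Psme3 at 97, followed by Psmc4 at 71.0 and Psmb1 at 67.4. In cumulus they were Psmd2 at 66.1, Psmb1 at 53.0 and Psmb4 at 52.8, and the order was read per length and without a test between genes. Of the 2 genes that share the name, Psmc3ip was at 1.80 (SE 0.11, adjusted p = 1.04e-22) with 30.9 CPM against 8.56 CPM, and Psme2b at -1.88. In the second set 43.53% of the nonzero counts of Psme2b and 43.92% of those of Psme2 were not whole. Sharing of reads between Psme2b and Psme2 was not tested. Of the exon bases of Psmc3ip, 21.2% are shared with Mlx on the opposite strand, and reads of the pair cannot be told apart.

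Of the pathway's other genes, the class I presentation list was mostly lower in oocytes. At 2 months 9 of its 10 genes were lower in oocytes and 1 higher, as in the young group. Tap1, the peptide transporter gene next to Psmb9, was at -6.70, Erap1, the trimming peptidase, at -8.01, H2-D1 at -6.86 and Nlrc5, the activator of class I genes, at -6.68. The interferon factor Irf1 was the 1 higher gene at 1.502. The proteasome partners had 4 higher and 3 lower of 9 at 2 months, the ubiquitin genes 2 higher and 4 lower of 6, the shuttle factors 4 higher and 3 lower of 9, and the regulators 2 higher and 2 lower of 4.

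Calorie restriction was compared with AL feeding at 9 months. In oocytes, called genes went in both directions: the core assembly chaperones Psmg1, Psmg3 and Psmg4 and 5 lid genes were lower, and 5 of 9 base subunits were higher and 1 lower. Of 50 genes tested, 9 were higher and 14 lower in CR oocytes, where 30% of all genes were called (15.8% higher, 14.2% lower). The median log2 change was 0.03 over the 50 genes and 0.00 over all genes, and no gene's ranges stood apart, against 0.589% of all genes. By role, 3 of 4 core assembly chaperones were lower. The lid had 5 lower and 2 higher of 8, the base ATPases 3 higher and 1 lower of 6, and the other base subunits 2 higher of 3. The 7 alpha ring genes held 1 higher and 1 lower gene, the 7 constitutive beta genes 1 higher and 2 lower, the 3 base chaperones 1 lower and the 4 activators 1 lower, with no call among the immunoproteasome genes. Depth differed between the diets, with a median total of 3578880 counts in CR oocytes and 2332130 in middle oocytes. When CR counts were thinned to the median total of the middle libraries, 21 genes were called and all were among the 23.

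**Figure D3:**
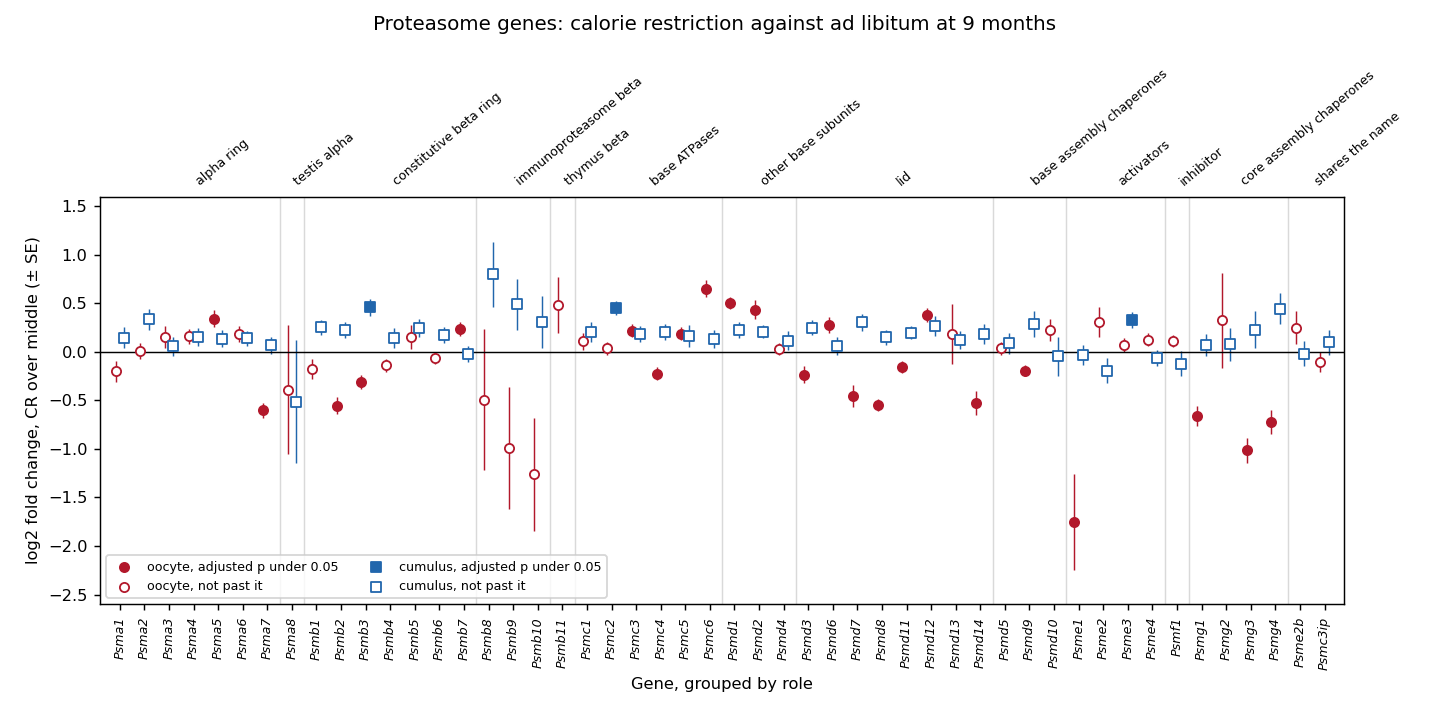
Log2 change with calorie restriction, CR over middle, on the y axis for each proteasome gene along the x axis by role, in oocytes (red circles) and in cumulus cells (blue squares). Bars are standard errors and filled points have an adjusted p under 0.05. In oocytes Psmg3 lies at -1.01 and Psmc6 at 0.65, and in cumulus 41 of 49 genes lie above 0. Of all 24657 genes tested in cumulus, 13356 were above 0.

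The core assembly chaperones fell together except for Psmg2, which is near 0 in oocytes. Psmg3 had 11.7 CPM (6.95 to 17.6) in middle oocytes and 5.82 CPM (3.37 to 11.5) in CR oocytes, and changed by -1.01 (SE 0.129, adjusted p = 2.18e-08). Psmg4 had 18.8 CPM (11.96 to 32.3) and 11.6 CPM (7.19 to 19.4), with -0.73 (SE 0.126, adjusted p = 9.99e-06), and Psmg1 44.3 CPM (25.7 to 58.9) and 28.2 CPM (17.8 to 40.9), with -0.66 (SE 0.102, adjusted p = 1.05e-06). The ranges of the diets overlapped for all 3. By mouse, the Psmg3 means of the 4 middle mice lay at 10.3 to 17.2 CPM and those of the 3 CR mice at 5.76 to 8.06 CPM. Psmg4 mouse means were 15.9 to 24.8 and 11.1 to 13.2 CPM, and Psmg1 means 30.6 to 55.4 and 26.1 to 29.96 CPM. The mice of the 2 diets stood apart for each, with a narrow gap for Psmg1. How many of all genes had mouse means that stood apart was not counted. With counts summed by mouse, Psmg3 was called and Psmg1 and Psmg4 were not. Psmg2 was at 0.32 with an adjusted p of 0.666.

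In the lid, Psmd8 had 178 CPM (144 to 208) in middle and 121 CPM (100.03 to 150) in CR oocytes, with a small overlap and a change of -0.55 (SE 0.0588, adjusted p = 3.82e-10). Its mouse means lay at 162 to 199 CPM and 111 to 140 CPM. Psmd14, the deubiquitinase, had 25 CPM (19.3 to 45.4) and 17.8 CPM (10.4 to 31.5), with -0.53 (SE 0.125, adjusted p = 0.000893), and Psmd7, the subunit that pairs with it, changed by -0.45 (SE 0.111, adjusted p = 0.0012). Psmd3 (-0.23) and Psmd11 (-0.16) were lower by smaller steps. Against these, the lid gene Psmd12 had 45.1 CPM (32.4 to 55.5) and 59.0 CPM (43.7 to 77.3), a change of 0.38 (SE 0.0689, adjusted p = 2.23e-05), and Psmd6 was at 0.28.

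The base went up more than down. Psmd1, a large scaffold of the base, had 90.9 CPM (72.4 to 106) in middle oocytes and 129 CPM (85.2 to 154) in CR oocytes, with a change of 0.50 (SE 0.062, adjusted p = 1.02e-08) and mouse means of 72.7 to 94.2 and 119 to 137 CPM. Psmd2, the other scaffold, changed by 0.43 (SE 0.0967, adjusted p = 0.000421). The ATPase Psmc6 had 36.3 CPM (21.6 to 52.7) and 54.8 CPM (44.3 to 71.5), a change of 0.65 (SE 0.0879, adjusted p = 7.6e-08), and its mouse means of 29.7 to 40.9 and 50.6 to 56.9 CPM did not overlap. The ATPases Psmc3 and Psmc5 were at 0.22 and 0.19 and Psmc4 at -0.22.

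In the rings, Psma7 had 77.1 CPM (56.3 to 106) in middle and 51.7 CPM (35.9 to 78.7) in CR oocytes and changed by -0.60 (SE 0.078, adjusted p = 3.38e-08), while Psma5 was at 0.34. Psmb2 changed by -0.55 (SE 0.0896, adjusted p = 2.77e-06) and Psmb3 by -0.31 (SE 0.0745, adjusted p = 0.00089), and Psmb7 was at 0.24. Among the catalytic subunits without a call, Psmb5 was at 0.15 (adjusted p = 0.385) and Psmb6 at -0.06 (adjusted p = 0.477). The immunoproteasome genes Psmb8, Psmb9 and Psmb10 gave -0.49, -0.99 and -1.26 with adjusted p of 0.658, 0.25 and 0.0981 at levels near 0. Psmf1 was at 0.11 (adjusted p = 0.154), Psme3 at 0.07 (adjusted p = 0.511) and Psme4 at 0.13 (adjusted p = 0.177).

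Psme1 was the 1 activator called, at -1.75 (SE 0.493, adjusted p = 0.00492). It had 1.44 CPM (0 to 35.3) in middle oocytes and 1.23 CPM (0 to 5.65) in CR oocytes, so the medians were close and single middle libraries stood high. Without the oocyte libraries whose cumulus marker sum exceeded double the oocyte median, chosen after seeing the data, the change was -0.017 (adjusted p = 0.987). Psmb7 also lost its call there, at 0.14 (adjusted p = 0.118), and 23 genes were called in all, 19 of them among the 23 of the full comparison.

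**Figure D4:**
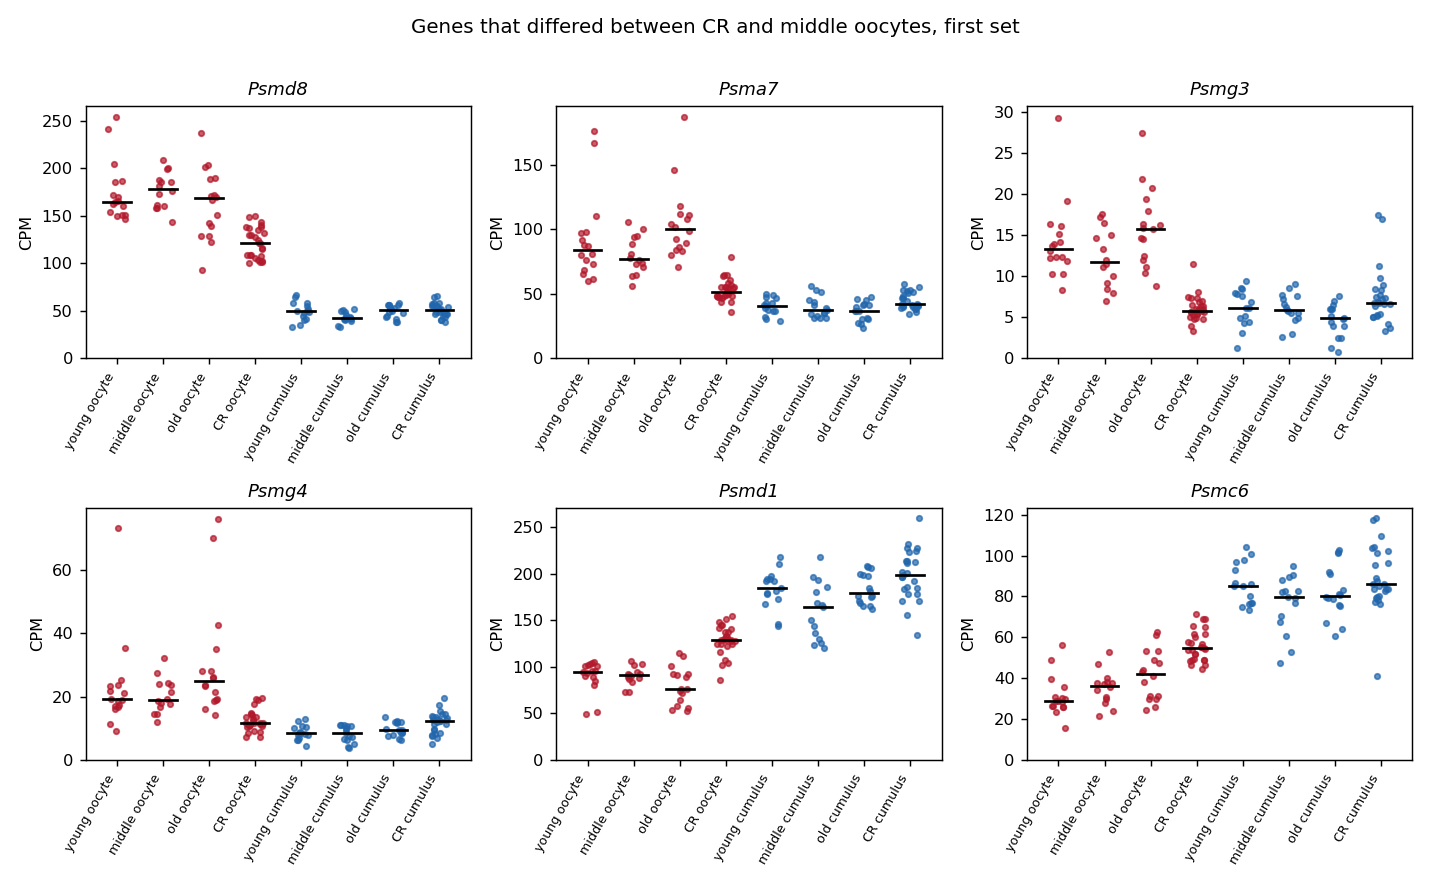
CPM in each library of the first set for Psmd8, Psma7, Psmg3, Psmg4, Psmd1 and Psmc6, with 1 panel a gene, groups along the x axis (oocyte red, cumulus blue), a linear y axis and lines at the medians. In oocytes the CR medians of Psmd8, Psma7, Psmg3 and Psmg4 lie below the middle medians and those of Psmd1 and Psmc6 above them.

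For the 6 genes plotted by library, the CR oocyte medians also lay outside those of the young and old oocytes. These 6 were picked from the 23 genes called between the diets, which favours such a result. How many of the 23, or of all genes, behave so was not counted. Psmd8 had a median of 165 CPM in young and 168 CPM in old oocytes, and Psmg3 of 13.4 and 15.8 CPM, above the CR medians of 121 and 5.82 CPM. Psmc6 had medians of 28.8 and 42.2 CPM in young and old oocytes and Psmd1 of 94.6 and 76.1 CPM, below the CR medians of 54.8 and 129 CPM.

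The calls in CR oocytes depended on the unit of the test. With counts summed by mouse, 4 against 3, the same test called 6 genes: Psmb2, Psmd8 and Psmg3 lower, and Psmc6, Psmd1 and Psmd12 higher. Of all 25276 genes, 2151 were called in that fit. Without mouse CR3 the count was 15 of the 50 genes, where 5853 of all 23855 genes were called. Transcript length went with the change over all genes, as the called genes' median length was 4328 bases for higher and 2658 bases for lower. Among the 50 genes these medians were 2649 and 2560 bases, and a correction for length, added after seeing the data, called 27 genes that held all 23.

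In cumulus cells, restriction gave 3 higher genes of 49 tested and none lower, where 3.6% of all genes were called and 2.06% were higher. The base ATPase Psmc2 had 88.9 CPM (64.9 to 114) in middle and 121 CPM (97.9 to 156) in CR cumulus, a change of 0.45 (SE 0.072, adjusted p = 0.000101). Psmb3 had 45.0 CPM (33.4 to 61.0) and 68.4 CPM (44.2 to 97.9), with 0.46 (SE 0.0904, adjusted p = 0.0014), and Psme3 74.6 CPM (60.3 to 106) and 104 CPM (60.3 to 135), with 0.33 (SE 0.0841, adjusted p = 0.0176). All 3 overlapped between diets. With sums by mouse edgeR called 0 of the 49 genes, with 10 at an unadjusted p under 0.05, and 0 of all genes tested. Without mouse CR3 the count was 8, where 1267 of all 22924 genes were called. The median change was 0.16 over the 49 genes and 0.04 over all genes, and 41 of the 49 had a positive sign. Of all 24657 genes tested, 13356 had a positive sign.

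The difference between the cell types in the response to restriction was tested as an interaction. It was called for 22 of the 50 genes, 21 of them lower in the oocyte response and 1 (Psmc6) higher, where 12.7% of all genes were called, 8.42% lower and 4.3% higher. Of these, 15 were also called in oocytes. Psmg3 gave -1.33 (SE 0.231, adjusted p = 1.03e-05), Psmg4 -1.25 (SE 0.205, adjusted p = 2.93e-06), Psmb2 -0.87 (adjusted p = 3.37e-07) and Psmd8 -0.79 (adjusted p = 2.84e-09). Psmb3, called in both cell types, went down in oocytes and up in cumulus and gave -0.86 (adjusted p = 5.39e-08). Without mouse CR3 the count was 14, where 2937 of all 28901 genes were called. With sums by mouse it was 0, where 30 of all 30659 genes were called. In the main edgeR fit the median difference was -0.31 over the 50 genes and -0.13 over all genes, so all genes leaned lower too. By DESeq2 these medians were -0.16 and 0.004, with 2 of the 50 genes higher and 17 lower. Among the pathway's other genes in CR oocytes, the partners had 5 higher and 2 lower of 9, with the deubiquitinase Usp14 at 0.68 and the ubiquitin receptor Adrm1 at -0.59. The ubiquitin list had 1 higher and 5 lower of 6, with Ubb at -0.62. Of the 4 regulators 2 were higher, Nfe2l2 at 0.73 and Ngly1 at 0.28, and of the 10 class I genes 1 was higher and 4 lower.

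Age changed few of the genes. In oocytes, young against middle gave no call among 50 genes in edgeR (0% of all genes called), 0 genes at an unadjusted p under 0.05 and 0 by DESeq2. Young against old gave 4 higher and 1 lower of 49, where 7.39% of all genes were called (4.4% higher, 2.99% lower), and 6 higher and 0 lower without TMM scaling. Psma3, an alpha ring subunit, rose from 16.7 CPM (11.3 to 30.7) in young to 26.9 CPM (17.6 to 47.5) in old oocytes, a change of 0.64 (SE 0.151, adjusted p = 0.0209). Psmd7 of the lid rose by 0.42 (SE 0.113, adjusted p = 0.0278) and the ATPase Psmc1 by 0.36 (SE 0.115, adjusted p = 0.0484), and Psmd3 of the lid changed by -0.40 (SE 0.125, adjusted p = 0.0447). All of these overlapped between the ages. None of the 49 genes passed when Young1, Young2 or the label that joins 2 old mice was left out. Of all genes tested, 6, 0 and 0 were called in these 3 fits. Without Old3, 13 of the 49 passed, where 4141 of all 22478 genes were called.

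Psme1 was the fifth gene, with 2.20 CPM (0 to 9.29) in young and 7.05 CPM (0 to 45.6) in old oocytes and a change of 1.95 (SE 0.532, adjusted p = 0.0283). The median cumulus marker sum was 298 CPM in young and 605 CPM in old oocyte libraries. Without the oocyte libraries high in those markers Psme1 changed by 0.69 (adjusted p = 0.529).

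In the second set, oocytes of 4 and 9 months gave no call against 2 months in edgeR, of 49 and 48 genes, with 3 and 7 genes at an unadjusted p under 0.05 and 0 and 1 (Psmg1) by DESeq2. Of all genes, 0.0126% and 0.16% were called. At 14 months 1 of 48 genes was called, where 1.14% of all genes were called and 0.477% were lower. Psmc2 had 174 CPM (117 to 208) at 2 months and 150.2 CPM (132 to 202) at 14 months, a change of -0.21 (SE 0.0486, adjusted p = 0.0193). None of the 5 genes called in old oocytes of the first set was called here. All 7 alpha ring and 6 base ATPase genes, Psma3 and Psmc1 among them, had a positive sign in that comparison and a negative sign here. Psme1 was positive in both. Of the 49 genes tested in the first set 37 were positive and 12 negative, and of the 48 here 15 were positive and 33 negative. Of all 23100 genes tested in the first set 13560 were positive and 9540 negative. Here 11553 of all 22659 were positive and 11106 negative. The median change was 0.16 over the 49 genes and 0.11 over all genes in the first set, and -0.07 and 0.00 here.

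In cumulus cells each age contrast called at most 1 gene, and each time another one. Psmc2 was lower in middle than in young cumulus by a change of -0.36 (SE 0.0849, adjusted p = 0.02), where 1.46% of all genes were called and 0.808% lower, and Psmb4 of the beta ring was lower in old cumulus at -0.26 (SE 0.0697, adjusted p = 0.0284), where 3.96% were called and 2.19% lower. Both calls were lost without TMM scaling, with sums by mouse and on leaving out some mice, so that Psmc2 passed in 7 of 12 alternatives and Psmb4 in 4 of 9. In the second set Psmb2 was lower at 9 months at -0.38 (SE 0.106, adjusted p = 0.0471), where 1.92% of all genes were called and 0.404% lower, and passed in 5 of 14 alternatives. The lid gene Psmd11 was higher at 14 months at 0.33 (SE 0.0827, adjusted p = 0.024), where 1.7% of all genes were called and 0.927% higher. Its levels were 78.6 CPM (55.7 to 117) and 96.2 CPM (76.2 to 145), and the call was lost with sums by mouse and without 14mo39, 14mo40 or 2mo34. At 4 months edgeR called 0 of 50 genes, with 5 at an unadjusted p under 0.05 and 1 (Psmc4) by DESeq2, and 0.519% of all genes were called.

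Hyperovulation was compared with no stimulation at 2 months in the second set. In oocytes edgeR called 0 of 50 genes, with 1 at an unadjusted p under 0.05 and 0 by DESeq2, and 0.0299% of all genes were called. In cumulus cells 6 genes were higher with hyperovulation and none lower, where 13.2% of all genes were called, 6.16% higher and 7.01% lower. The median change was 0.05 over the 50 genes and -0.04 over all genes. The 6 came from the rings, Psma2, Psmb2 and Psmb6, and from the regulatory particle, Psmc4, Psmd2 and Psmd3.

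Psmb2 had 37.1 CPM (17.3 to 56.4) without and 46.8 CPM (36.3 to 61.3) with hyperovulation in cumulus, a change of 0.35 (SE 0.0854, adjusted p = 0.00315). Psmd2, the base scaffold, had 200.3 CPM (113 to 268) and 236 CPM (174 to 316), a change of 0.24 (SE 0.0712, adjusted p = 0.015). The ranges overlapped for both, as they did for the others, which changed by 0.25 to 0.30. The median cumulus marker sum was 6505 CPM without and 8767 CPM with hyperovulation, and its part in these changes was not tested. Without mouse 2mo2 the count was 3, where 2875 of all 23896 genes were called. With sums by mouse it was 0, where 230 of all 24161 genes were called. The response differed between oocyte and cumulus for 3 genes, all lower in the oocyte response, where 4.05% of all genes were called and 1.91% lower: Psma2 at -0.37 (SE 0.103, adjusted p = 0.0174), Psmb2 at -0.35 (SE 0.101, adjusted p = 0.0242) and Psmb6 at -0.28 (SE 0.0869, adjusted p = 0.0405).

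**Figure D5:**
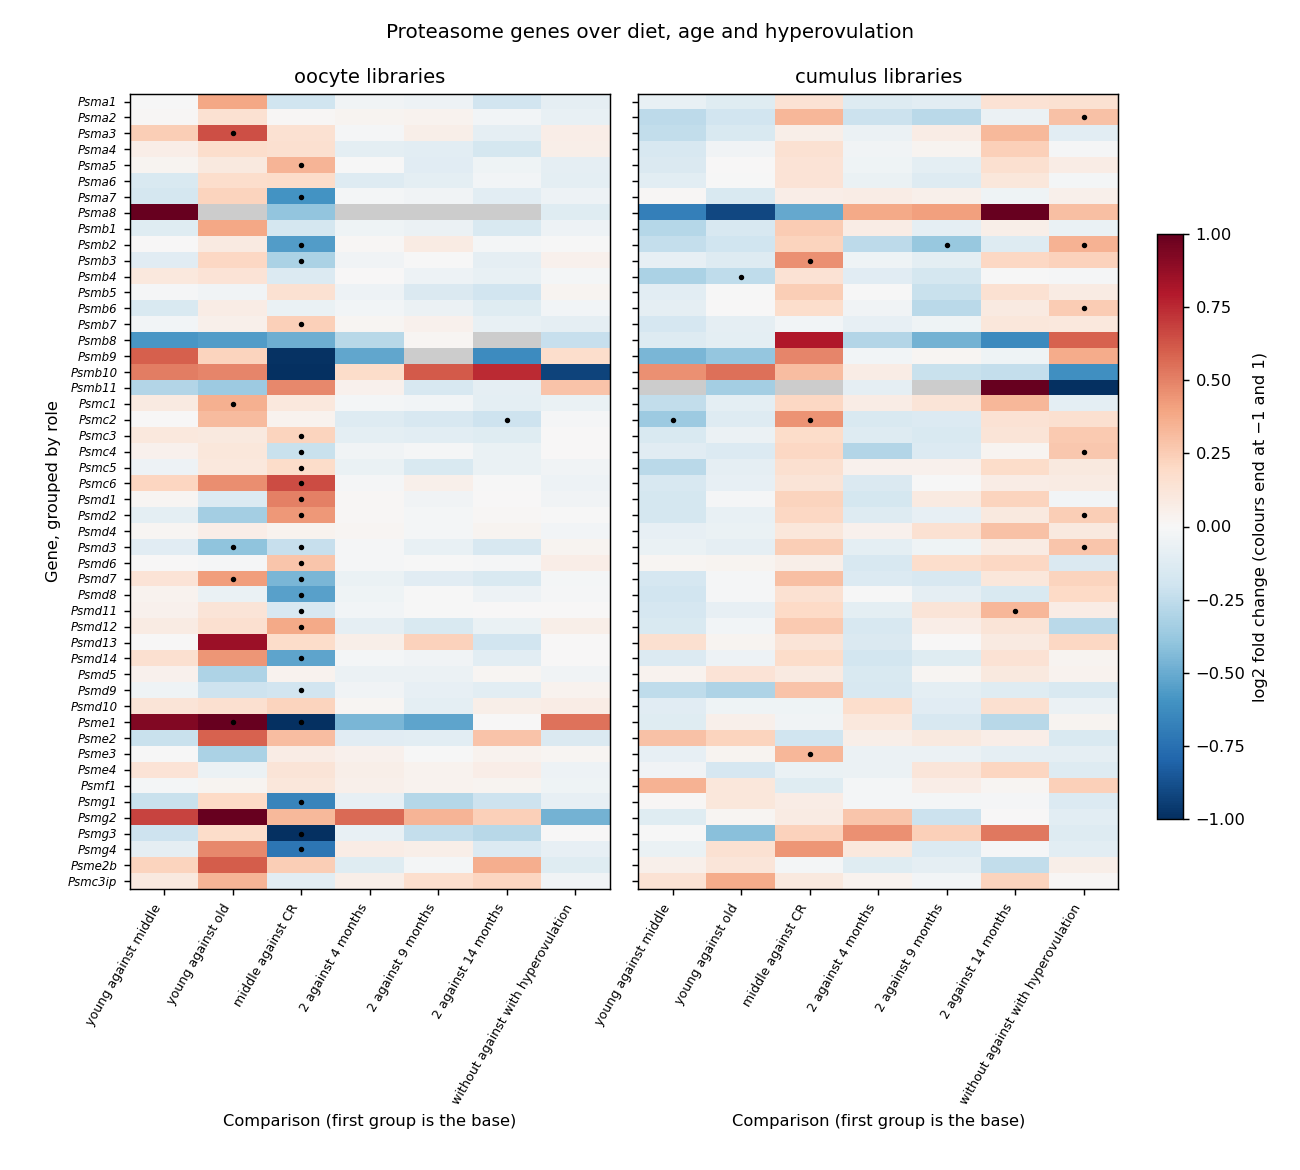
Log2 change of each proteasome gene (y axis, by role) in 7 comparisons of age, diet and hyperovulation for each cell type (x axis), coloured from blue at -1 or below to red at 1 or above, with grey where a gene was not tested. Dots mark an adjusted p under 0.05. Dots are most frequent in the column of CR oocytes, with 23, and in the other columns there are at most 6.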

How the data were processed

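RamDA-seq libraries of 200 oocytes and 199 cumulus pools were analysed. The submitters' processing notes name GRCm38, HISAT2 2.0.5 and featureCounts 1.5.1, and the tables use GENCODE vM15 genes. The count tables the authors deposited hold estimated counts with fractions (expected counts), 36.8% and 35.1% of nonzero values not being whole, and these were rounded to whole numbers. The deposited RPKM values were used for levels between genes in AL groups only, since RPKM in CR libraries did not follow from the deposited counts. Symbols were taken from GENCODE vM21. No column of another series was present (0).

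Genes with a count in 5 or more libraries of a comparison were tested in edgeR 4.0.16 (TMM factors, quasi-likelihood test, Benjamini-Hochberg over all genes tested, threshold 0.05) within each set. CPM are TMM-scaled. Libraries were the units. Oocytes and cumulus pools of 1 complex share an animal by the labels. Correlation of their deviations from the group mean had a median of -0.00391 over 15 young complexes and of 0.0195 over 24 complexes at 2 months. A complex was left out (2 libraries) where its oocyte library held under 0.1 of the median oocyte markers. Alternatives were DESeq2 1.42.0, no TMM, another filter, sums by mouse, plate, thinning, the block and each mouse left out. Code was tested on simulated data.

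By rule, up to 3 called members in each direction with the largest changes and a mean of at least 8 CPM were named in each comparison, beside Psmb5 to Psmb11, Psma8, Psmc3ip, Psmf1 and the activators. Other members given values were chosen after their values were seen. Members and lists were chosen with earlier results of these data known.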

Additional observations from a re-analysis of the deposited data

Results flagged for a closer look

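The response to calorie restriction differed between oocyte and cumulus for 22 proteasome genes by the interaction test in edgeR. The log2 differences, oocyte response minus cumulus response, were -0.87 for Psmb2, -0.33 for Psmb6, -1.65 for Psmb10, 0.43 for Psmc6, -1.81 for Psme1, -0.35 for Psme3 and -1.25 for Psmg4. Psmb10 and Psme1 stood near 0 CPM in oocytes. Several of these calls were lost under most alternatives: Psmb6 passed in 4 of 15 (at -0.024 in the smallest), Psme3 in 3 of 15 (at -0.061 in the smallest) and Psmb10 in 4 of 14. Psme1 passed in 11 of 15 and was at 0.066 without the oocyte libraries high in cumulus markers, while Psmc6 passed in 12 of 15 and Psmb2 and Psmg4 each in 14 of 15. The response to hyperovulation differed between the cell types for 3 genes, at -0.37 for Psma2, -0.35 for Psmb2 and -0.28 for Psmb6, which passed in 11, 10 and 8 of 18 alternatives.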

How the results depend on the processing

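Counts summed by mouse moved most counts of called genes: to 6 for CR oocytes, and to 0 for CR cumulus, the CR difference, hyperovulation in cumulus and its difference, young against old oocytes, and young against middle cumulus, young against old cumulus, 2 against 9 months cumulus and 2 against 14 months in both cell types. DESeq2 gave 1 for 2 against 4 months cumulus, 1 for 2 against 9 months oocytes, 6 for the hyperovulation difference, 5 for CR cumulus, 3 for young against middle cumulus and 10 for young against old oocytes. The stricter filter on low counts gave 6 for the hyperovulation difference, 3 for young against middle cumulus and 8 for young against old oocytes. Without TMM young against middle cumulus and young against old cumulus gave 0. With plate as a term, 2 against 9 months cumulus gave 0, the hyperovulation difference 6 and hyperovulation in cumulus 9. With all deposited libraries CR cumulus gave 7 and young against middle cumulus 2.

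Leaving out each mouse in turn gave these ranges of called genes: 15 to 23 for CR oocytes, 2 to 8 for CR cumulus, 14 to 20 for the CR difference, 3 to 8 for hyperovulation in cumulus, 0 to 4 for its difference, 0 to 13 for young against old oocytes, 0 to 3 for young against middle cumulus, 0 to 1 for young against old cumulus and for 2 against 4 months cumulus, 0 to 2 for 2 against 9 months cumulus and for 2 against 14 months in each cell type, 32 to 39 for young oocyte against cumulus and 46 to 50 at 2 months. The replicate block by complex gave 41 in the young group and 49 at 2 months and ended no call. Over single named genes, 657 alternatives kept the call and direction, 156 lost the call and 1 reversed: the CR difference of Psme1, at 0.066 without the oocyte libraries high in cumulus markers. A fit that gave no adjusted p was counted as kept where the direction held. Fits in which a gene was not tested were not counted. The counts of alternatives passed by single genes follow the same rule. The low genes of oocytes rest on few counts, and the depth of a library limits what a 0 shows.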
